A study of Mus musculus with 4 samples.

Results

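The nuclear factor I (NFI) family of the mouse comprises the 4 genes Nfia, Nfib, Nfic and Nfix, and its members here were the 5-hydroxymethylcytosine (5hmC) peaks to which the authors had given the symbol of one of them. There were 64 such peaks among the 56695 peaks of the chondrocyte list and 0 among the 1050 peaks of the chondroprogenitor list. The cells were ATDC5, an established mouse chondrogenic line and thus 1 cell line in culture, kept in basal medium with ascorbic acid as chondroprogenitors at day 0 and differentiated into chondrocytes by adding insulin, transferrin and selenite, with libraries at days 19 and 20. Each stage had 2 libraries of DNA captured for 5hmC, but the 2 peak lists used here were each made from the merged libraries of 1 stage, so the spread between replicates is not known and nothing below is tested between stages or between genes. Read depth is unknown, and the lists hold positions and gene symbols with no height or fold for each peak.

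NFI proteins are transcription factors that bind DNA as dimers of the same or different members through a conserved domain at the amino terminus, and the preferred site is a palindrome of TTGGC and its reverse complement. Nfia and Nfib are known for glial development, Nfib also for lung maturation, Nfic for tooth root formation, and Nfix for fetal muscle and brain, and mice lacking Nfix also have skeletal defects. 5hmC is made from 5-methylcytosine by the TET enzymes and in many tissues lies in the bodies of transcribed genes. A 5hmC peak does not measure expression, so these lists cannot show whether an NFI gene was transcribed or the cells were chondrocytes. Of 8 chondrocyte marker genes, 7 had an assigned day 20 peak (Sox9, Col2a1, Acan, Col9a1, Col11a1, Matn3 and Comp), against 43.8% of all protein-coding genes. The 8 markers were longer, with a median length of 26.6 kb against 17.2 kb over all protein-coding genes. Col10a1 had 0 by the authors' symbols and 1 by overlap with its gene body.

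All 4 NFI genes had day 20 peaks. Nfia had 26, Nfib 22, Nfix 10 and Nfic 6. At least 1 assigned peak was present in 43.8% of the 21900 protein-coding genes and in 72.6% of the 6579 that were at least as long as Nfic, the shortest member, so the presence of a peak in 4 of 4 was not unusual for genes of this length. The members differed more by what they carried. Nfia and Nfib held many peaks of ordinary width, Nfic was densely covered for its size, and Nfix held the widest ones. Wide peaks were not limited to Nfix. Those above the 95th percentile of the list (1299 bp) were 3 of 6 in Nfic and 5 of 10 in Nfix.

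The stretches before the listed starts are shown because no peak covered them. RefSeq (GRCm38.p6) listed 6 start windows of 300 bases, from 250 before to 50 after a start, for 3 of the members: 1 for Nfia, 1 for Nfic and 4 for Nfix. No window for Nfib was used here. Day 20 peaks overlapped 0 of the 6 windows and 4.7% of all 32851 windows of the same kind, so 0 of 6 is the usual case. The 250 bases before the start are given for Nfia, for Nfic and for the Nfix start closest to a peak, 5′ to 3′ on the gene's strand, with CG dinucleotides, the usual place of 5hmC, in capitals. They lie at chr4:97581693-97581942 on the plus strand, chr10:81427174-81427423 on the minus strand and chr8:84775829-84776078 on the minus strand.
Nfia: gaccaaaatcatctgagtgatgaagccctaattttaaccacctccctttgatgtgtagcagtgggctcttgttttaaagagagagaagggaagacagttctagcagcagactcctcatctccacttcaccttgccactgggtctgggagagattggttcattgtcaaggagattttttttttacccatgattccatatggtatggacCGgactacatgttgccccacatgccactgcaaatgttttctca
Nfic: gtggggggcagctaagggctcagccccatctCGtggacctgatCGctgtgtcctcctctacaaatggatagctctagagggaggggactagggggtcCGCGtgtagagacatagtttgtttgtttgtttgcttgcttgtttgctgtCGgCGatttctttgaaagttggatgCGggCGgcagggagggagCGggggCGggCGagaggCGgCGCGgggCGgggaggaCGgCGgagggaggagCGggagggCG
Nfix: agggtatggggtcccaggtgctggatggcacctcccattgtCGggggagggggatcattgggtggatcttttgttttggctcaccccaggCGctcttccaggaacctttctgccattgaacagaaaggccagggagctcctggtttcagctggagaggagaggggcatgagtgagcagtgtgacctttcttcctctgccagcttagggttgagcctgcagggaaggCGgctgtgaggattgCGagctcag

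These 250 bases held 1 CG in Nfia, 19 in Nfic and 4 in Nfix. Over the full 300 bases the counts were 2, 24 and 4, against a median of 7 over all windows (quartiles 3 and 20). The other 3 Nfix windows held 13, 9 and 2. The nearest day 20 peak lay 949 bp from the Nfix window shown, 1909 bp from the Nfic window and 5844 bp from the Nfia window. The windows were also searched for the NFI site itself. The palindrome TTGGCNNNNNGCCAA was found in 0 of 6 windows and in 0.0365% of all windows. One arm of it, TTGGC, on either strand and whether or not within a palindrome, was found in 3 of the 6, all of Nfix, and in 46.7% of all windows. These are matches of letters and not measured binding.

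**Figure D1:**
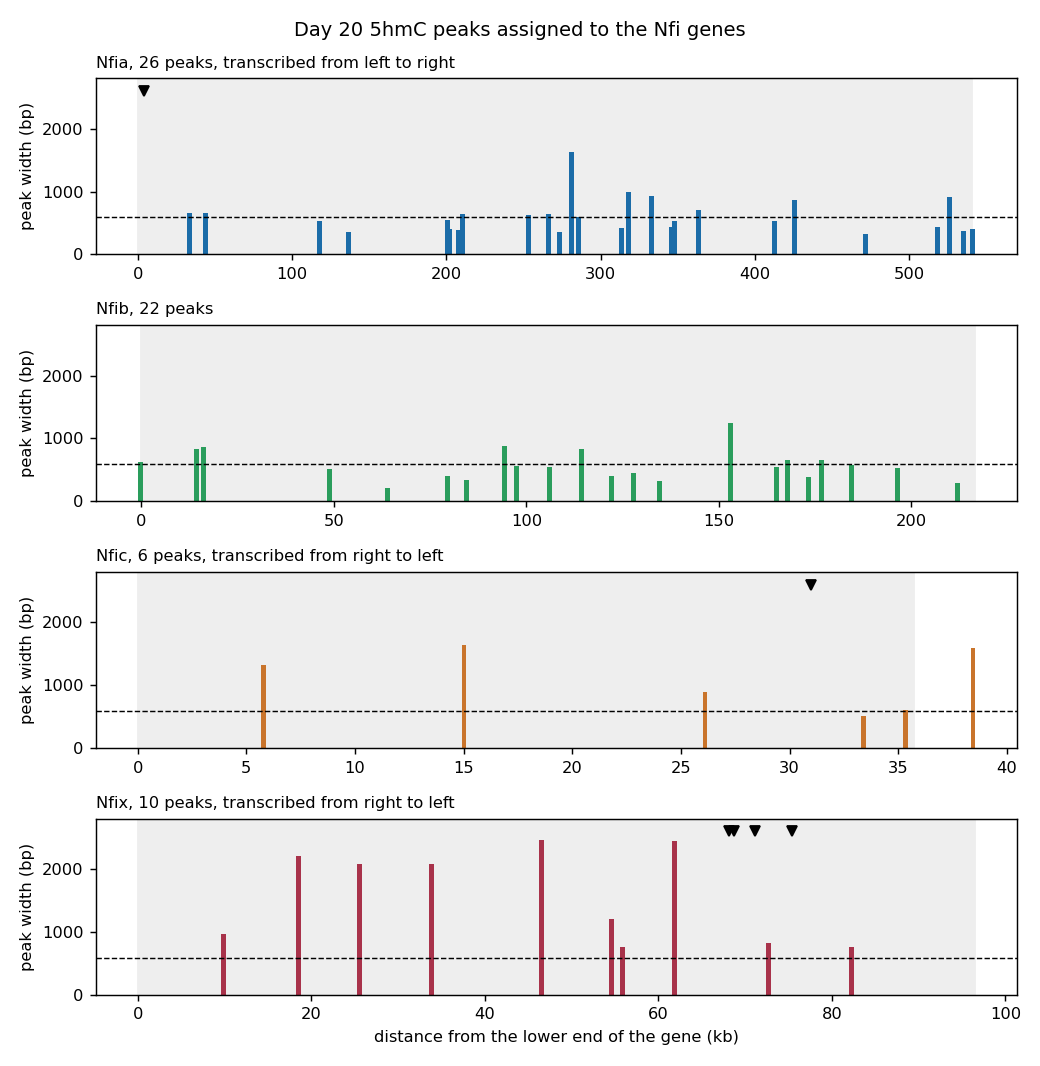
Day 20 peaks assigned to each NFI gene, 1 panel a gene, with the distance of the peak's midpoint from the lower end of the gene in kb on the x axis and peak width in bp as bar height. Grey marks the gene body, triangles the listed start sites and the dashed line the median width of the whole list (591 bp); the 5 tallest bars are all in Nfix.

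Nfia is the longest member, with 540.8 kb on chromosome 4 (97578066 to 98118876, GRCm38), and it carried the most peaks. Its 26 peaks took place 63 among protein-coding genes by number, but with 4.81 peaks per 100 kb of gene it was the sparsest of the 4. Among 159 other protein-coding genes of 0.8 to 1.2 times its length, the median was 7 peaks and 21 had more. Of these peaks, 25 overlapped the gene body and 1 lay 315 bp above its end. Nfia is read from low to high coordinates from its listed start at 97581943, and all 26 peaks lay downstream of it, the nearest 29.4 kb away. Of 3 equal parts of the gene, the lowest held 4 peaks, the middle 14 and the highest 8. The longest stretch of the gene body without a peak covered 73.4 kb (97622146 to 97695566). The authors tied the first 4 peaks, up to 97715110, to one transcript and the 22 from 97778845 upwards to another. Only 1 start was listed for Nfia, so distances to any other start of the gene were not measured. Peak width ranged from 325 to 1626 bp, with a median of 544 bp, and the widest stood from 97858533 to 97860158 in the middle part.

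Nfib, also on chromosome 4 (82290173 to 82506751, 216.6 kb), carried nearly as many peaks as Nfia in a shorter gene. Its 22 peaks ranked 105 by number and gave 10.2 per 100 kb. Among 509 other protein-coding genes of 0.8 to 1.2 times its length, the median was 5 peaks (quartiles 1 and 12), and 10 had more than Nfib. The peaks were spread along the gene, with 5, 9 and 8 in its lower, middle and upper parts of equal length, a median distance of 8.26 kb between neighbours and no peak-free stretch above 32.0 kb. The lowest peak (82289567 to 82290194) extended past the lower end of the gene. Widths ran from 212 to 1251 bp with a median of 542.5 bp, close to those of Nfia and below the median of 591 bp over the list. The narrowest of all 64 peaks was the Nfib peak from 82354102 to 82354313.

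Nfic, on chromosome 10 (81396191 to 81431919), is the shortest member at 35.7 kb. Its 6 peaks gave 16.8 per 100 kb, a density that ranked 4 among the 6579 protein-coding genes at least as long, whose median was 2.48 (quartiles 0 and 5.45). Of 2154 other genes of 0.8 to 1.2 times its length, 4 had more peaks. The order among such genes rests on few peaks, and without the peak that lay 1917 bp above the gene (81433836 to 81435431) Nfic had 5 peaks and 14.0 per 100 kb. Nfic is read from high to low coordinates, and 3 peaks lay downstream of its listed start at 81427173 and 3 upstream. The downstream peaks spanned 884, 1645 and 1316 bp in the direction of reading, and the upstream ones 504, 612 and 1596 bp with growing distance. The listed start lies below the upper end of the annotated gene, at 81431919, which is its 5′ end in the direction of reading. The upstream peaks of 504 and 612 bp lay inside the gene, and the one of 612 bp (81431239 to 81431850) lay close to that end. The median of the 6 was 1100 bp, which ranked 64 among the 1857 protein-coding genes with 5 or more assigned peaks.

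Nfix, on chromosome 8 (84704712 to 84801238, 96.5 kb), stood out by the width of its peaks. By number, its 10 peaks exceeded the median of 3 over 1256 other genes of 0.8 to 1.2 times its length, of which 47 had more. In order of coordinates the 10 widths were 971, 2207, 2087, 2086, 2458, 1203, 761, 2443, 817 and 757 bp. Every one of them was above the list's median, where 49.9% of all peaks were, and the median of the 10 was 1644.5 bp. This median ranked 4 among the 1857 protein-coding genes with 5 or more assigned peaks, after Tpst2 with 2017 bp, Zcchc24 with 1649 bp and Dnm1 with 1647.5 bp, and the median gene of that set had 616 bp. Of the Nfix peaks, 5 were wider than the 99th percentile of the list (1892.1 bp), which 1% of all peaks exceed by definition. That is 50% of the gene's peaks (Wilson 95% interval 23.7 to 76.3%, covering counting error only). No peak of the other 3 genes passed it. The 95th percentile (1299 bp) was passed by the same 5 Nfix peaks, 3 of 6 Nfic peaks and 1 of 26 Nfia peaks. The 99th percentile was chosen after the widths were seen, and peaks of 1 gene are not independent measurements.

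The wide Nfix peaks lay inside the gene, downstream of its listed starts. Nfix is read from high to low coordinates, with listed starts at 84780082, 84775828, 84773410 and 84772875. All 5 peaks above the 99th percentile were downstream of these 4 starts, the nearest (84765358 to 84767800) at 5.08 kb from a start and the farthest (84722167 to 84724373) at 48.5 kb. The widest spanned 84750010 to 84752467 and ranked 138 by width among all 56695 peaks. The peak of 817 bp (84777027 to 84777843) lay between the first and second of these starts, and the one of 757 bp (84786595 to 84787351) lay upstream of all 4. The 13.9 kb above it, up to the upper end of the annotated gene at 84801238, held no peak. This upper end is above all 4 listed starts, and all 10 peaks lay inside the gene. The peaks of 1203 and 761 bp stood 242 bp apart.

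**Figure D2:**
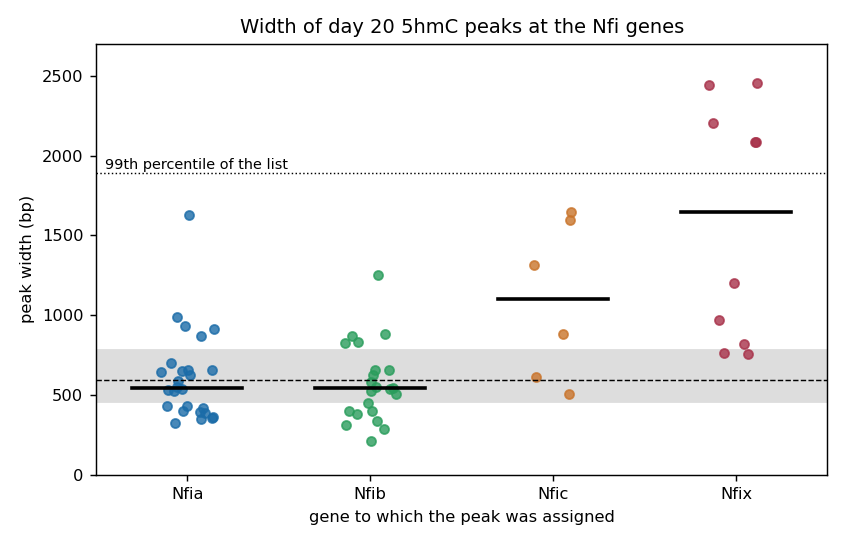
Width in bp of each day 20 peak (points) by NFI gene, with the median of each gene as a thick bar. The grey band and dashed line give the quartiles (458 and 783.5 bp) and median (591 bp) of the whole list; the medians are 544 and 542.5 bp for Nfia and Nfib, 1100 bp for Nfic and 1644.5 bp for Nfix.

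The share of the gene covered ordered the members differently from the counts. Peaks covered 16.4% of the Nfix body and 13.9% of the Nfic body, against 5.55% in Nfib and 2.86% in Nfia. Counting all assigned peaks, also the one above the gene, Nfic came first with 18.4% of its length, and the order of these 2 genes depends on that 1 peak. In base pairs the 10 Nfix peaks summed to 15.8 kb, close to the 15.9 kb of the 26 Nfia peaks. Over all 64 peaks the median width was 627 bp (distribution-free 95% interval 538 to 757 bp), and 53.1% (41.1 to 64.8%) were wider than the list's median. Leaving out Nfix, the share was 44.4% (32.0 to 57.6%). The median of the 64 peaks was near that of the list, with Nfix and Nfic above and Nfia and Nfib below. Widths went by gene, with 10 of 10 Nfix and 8 of 22 Nfib peaks above the list's median. The intervals treat the peaks as independent, which they are not, and so cover counting error only.

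**Figure D3:**
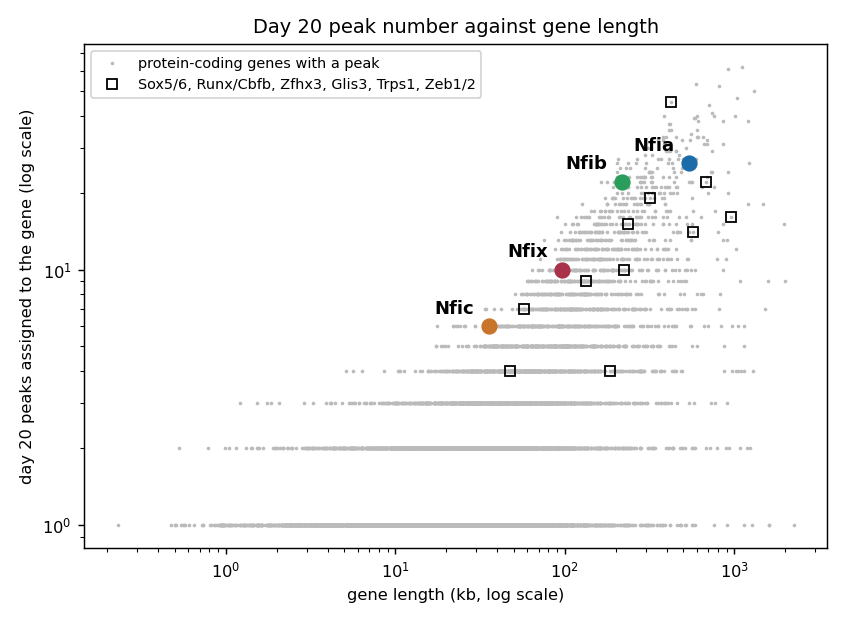
Number of day 20 peaks assigned to a gene against gene length in kb, both on log scales, for protein-coding genes with at least 1 peak (grey points), the NFI genes (coloured circles) and 11 genes of other transcription factor groups (open squares). At their lengths, all 4 NFI genes sit in the upper part of the cloud.

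At day 0 no peak was assigned to an NFI gene and none overlapped an NFI gene body. Assigned day 0 peaks were present in 1.81% of protein-coding genes, so 0 of 4 is the usual case. Overlap with a day 0 peak was found for 0 of the 64 peaks, and 0.841% of all day 20 peaks did. A count of 0 of 64 allows a share of up to 4.69% when taken as 3 counts of the total (the Wilson upper limit is 5.66%), and so a share equal to that of the whole list was not detectable with this number of peaks. In the 500 kb on both sides of the genes there were 4 day 0 peaks. The flanks of Nfic held 2, both at Eef2 and 217 kb or more below the gene. Those of Nfib held 1, at 45.6 kb above the gene, and those of Nfix 1, at 166.4 kb above it. Nfia had none, and 31.1% of protein-coding genes had at least 1. The day 0 list is 1050 peaks long with a median width of 134 bp, so neither these counts nor the day 20 counts can be read as an amount of 5hmC or as a change in it.

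The surroundings of the 4 genes differed in kind. The 500 kb on each side of Nfib held 48 further day 20 peaks, 25 below and 23 above the gene, in a region with no protein-coding gene on the lower side and 3 on the upper. This was the highest flank count of the family and took place 3814 of 21900 protein-coding genes (median 29, quartiles 11 and 43). The authors' annotation gave no gene symbol to 40 of the 48 (83.3%, 70.4 to 91.3%, counting error only), against 39.7% of the whole list. None of the 48 was assigned to Nfib. The nearest protein-coding neighbours were Mpdz, 847.3 kb below with 5 peaks in its body, and Zdhhc21, 292 kb above with 1. Frem1, a basement membrane gene 391.2 kb above, held 5. The peaks closest to Nfib stood 6.39 kb below and 7.67 kb above it. Most of the widths there were ordinary, with a median of 525.5 bp.

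Nfia also lay in a gene-poor region, but its flanks were sparse and uneven. They held 15 day 20 peaks, 1 below and 14 above, of which 1 was the peak 315 bp above the gene with the symbol of Nfia, a total that ranked 15159. The single lower peak (97575385 to 97575849) stood 2217 bp from the gene and carried the symbol of the noncoding RNA gene E130114P18Rik. No other peak was found in the 500 kb below Nfia, where no protein-coding gene lies, and the nearest, Gm12695, was 791.2 kb away with 0 peaks. On the upper side, Tm2d1 at 236.5 kb held 0 peaks and Patj, a cell polarity gene at 276.7 kb, held 11 in its 324 kb, part of them beyond the 500 kb. Nfia and Nfib are both long genes on chromosome 4, each with 500 kb free of protein-coding genes on its lower side. These are different regions of the chromosome, and they held 1 day 20 peak at Nfia and 25 at Nfib. The strand of Nfib was not used, so the regions were not matched by direction of reading.

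Nfic and Nfix lay among many genes. The flanks of Nfic overlapped 52 other protein-coding genes and held 31 day 20 peaks, 16 below and 15 above, of which 1 had no symbol. Its neighbours were Smim24, 1.11 kb below with 0 peaks, and Celf5, 27.3 kb above with 2. The most peaks were in Gng7, a G protein subunit gene, with 6, and in Pip5k1c with 3. The nearest peak below Nfic was 64.1 kb away. The flank count includes the peak above the gene that carried the symbol of Nfic. The other 30 flank peaks had a median width of 739 bp, above that of the list and below the 1100 bp of the 6 Nfic peaks, and the widest, with 1813 bp, exceeded all 6.

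The flanks of Nfix overlapped 39 other protein-coding genes and held 40 day 20 peaks, 24 below and 16 above. Lyl1, a transcription factor gene whose end overlaps that of Nfix, had 1 peak (84702889 to 84703983), 729 bp below Nfix, and Trmt1, 4.90 kb below, had 2 by position. Cacna1a, a calcium channel gene 64.5 kb below, held 11 in its body. On the upper side Dand5, 14.2 kb away, held 1. The 40 flank peaks had a median width of 589 bp, 20 of them were above the list's median, and the widest, with 1823 bp, was wider than 5 of the 10 Nfix peaks. Of the 40, 1 was above the 95th percentile of the list (1299 bp) and 0 above the 99th, which is near what the share of 1% over the list gives. The widths beside Nfix were thus near those of the list.

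**Figure D4:**
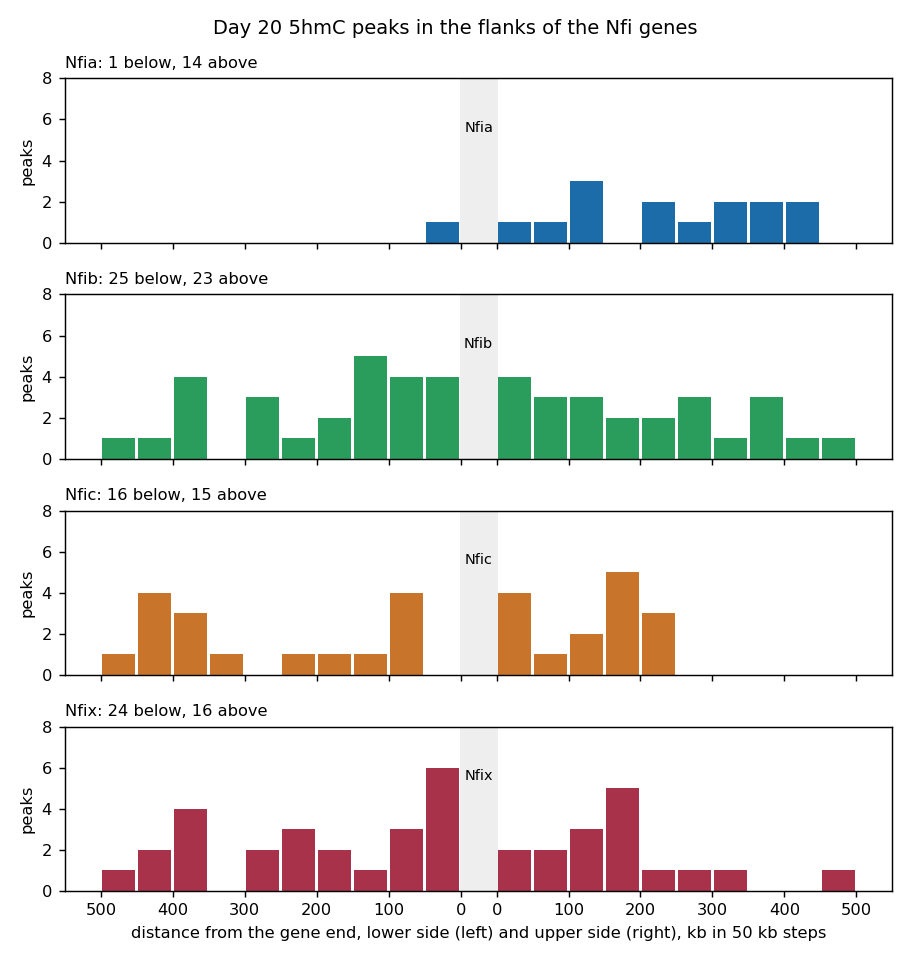
Day 20 peaks in the 500 kb below (left) and above (right) each NFI gene, counted in steps of 50 kb from the gene's end, with the gene body (grey, not to scale) left out. Nfia has 1 peak on its left side and Nfib 25.

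In each of the 4 genes peaks were denser in the body than beside it. Per 100 kb, the body and the flanks held 4.62 and 1.5 peaks in Nfia, 10.2 and 4.8 in Nfib, 14.0 and 3.1 in Nfic and 10.4 and 4 in Nfix, ratios of 3.08, 2.12, 4.51 and 2.59. Of the 6579 protein-coding genes at least as long as Nfic, 44.3% were denser in the body than in the flanks, and their median ratio was 0.884. That set includes genes without a peak, which cannot be denser in the body, and 72.6% of it had an assigned peak. The share among genes with a peak was not calculated. The trait was not particular to the NFI genes. Of the other transcription factor genes compared below, Runx2, Runx3, Cbfb, Zfhx3, Glis3, Trps1 and Zeb2 were also denser in the body. Sox5, Sox6, Runx1 and Zeb1 were not.

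**Figure D5:**
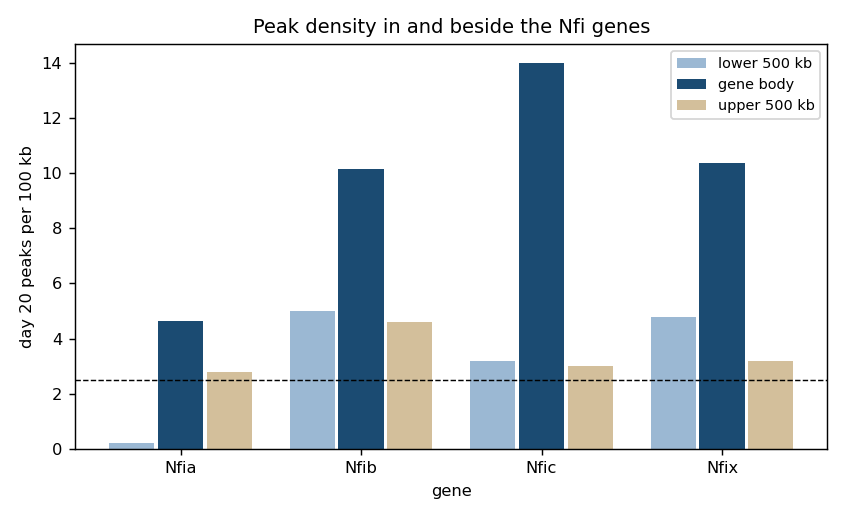
Day 20 peaks per 100 kb in the gene body and in the 500 kb below and above it for each NFI gene. The dashed line is the median density of assigned peaks over genes at least as long as Nfic (2.48 per 100 kb), and in each gene the middle bar, for the body, is the highest.

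By the densities in the body and in both flanks, the genes most like each member were of several kinds. Likeness was the Euclidean distance over these 3 values, as log2 of 1 plus peaks per 100 kb, among all protein-coding genes in this 1 list. Closest to Nfib were Ets1, an ETS transcription factor gene, with 12 peaks in its body and 24 and 23 in its flanks (distance 0.06), and Ubtf with 2, 25 and 24 (distance 0.06). Closest to Nfix were Hopx with 3, 24 and 17 (distance 0.08) and Gucy2e with 2, 23 and 17 (distance 0.08). Closest to Nfic were Cpxm1 and Zfand5, with 1 and 2 peaks in short bodies. Closest to Nfia were Pcdhga11 and Pcdhgb7, protocadherin genes that overlap each other, so that their 4 peaks each are not independent, and neither had a peak by the authors' symbols.

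Beside other transcription factor groups the NFI genes were not set apart by peak number. By the authors' symbols they carried 7.19 peaks per 100 kb of gene, against 6.17 in Runx1, Runx2, Runx3 and Cbfb, 5.73 in Zfhx3, Glis3, Trps1, Zeb1 and Zeb2, 1.97 in Sox5 and Sox6, and 3.07 over all protein-coding genes. Counted by overlap with the gene body, the order changed, with 6.97 in the NFI genes, 7.10 in the Runx group, 7.42 in the Zfhx3 group and 3.68 in Sox5 and Sox6. The 2 ways of counting nearly coincided for the NFI genes, with 64 and 62 peaks. For Sox5 they gave 16 and 42, for Runx2 19 and 28 and for Zfhx3 22 and 51. In single genes, the density of Nfib and Nfix (10.2 and 10.4 per 100 kb) was close to that of Glis3 (10.7) and Runx3 (12.2). Runx1 held 10 assigned peaks and Cbfb, the shared partner of the Runx proteins, 4. Sox6 held 14, Trps1 15, Zeb2 9 and Zeb1 4. Median width was 627 bp in the NFI group, 750 bp in the Runx group, 607 bp in the Zfhx3 group and 555.5 bp in Sox5 and Sox6, and Runx3 had the widest of those 11 genes with 1446 bp.

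A list of 30 partners and reported targets of NFI proteins in other tissues was described in the same way. An assigned day 20 peak was present in 24 of 30 genes (80.0%), against 43.8% of all protein-coding genes, at a median length of 25.4 kb against 17.2 kb. The median number was 1 peak against 0. Pparg, the adipocyte nuclear receptor, had 9 peaks, Insc, a spindle orientation gene, 8, and Zcchc24 and the glutamate transporter gene Slc1a3 had 7 each. The 7 peaks of Zcchc24 had the median of 1649 bp named above. Genes of the list without an assigned peak were Cebpa, Foxa1, Fabp7, Aqp4, Ucp1 and Prkcq. At day 0, Sox9 was the 1 gene of the list with a peak. Whether NFI proteins bind any of these genes in ATDC5 cells was not measured.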

How the data were processed

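The data were 2 lists of 5hmC peaks from ATDC5 cells. Per the file headers, the libraries of a stage were merged and only peaks enriched 10-fold were kept. The sources used here do not say what the fold was relative to, or if the day 19 library was among those merged for day 20. The submitters' processing notes mention the tools MACS 1.4.2, BWA, cutadapt and FastQC, without saying what each did, and the build GRCm38. Each deposited row gave a peak's start and end in bp and a gene symbol with its transcript, and no other value. In the day 20 list, 3 entries without a readable end were left out. Depth per library was unknown.

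Peaks belonged to a member by the authors' symbol. For the other genes the transcript accession was used first and then the symbol, which matched 99.7% of the day 20 peaks that had one. Gene positions came from RefSeq GRCm38.p6, which gave no exons. Exons were not used here, and strand came from the start windows. A peak counted in a gene body or flank when it overlapped it by at least 1 bp. Flanks were 500 kb on each side, and lower and upper refer to coordinates. Neighbours were the nearest protein-coding gene on each side and up to 2 within 500 kb with the most peaks; the 2 most like genes followed the distance given in the text. From each gene list up to 4 members with the most peaks were named, and every gene of the other transcription factor groups; genes without a peak, the widest genes and Eef2 were named after their values were seen. The members and lists were chosen with earlier results of these data known. Intervals on percentages are Wilson 95% intervals, and no p-value was calculated. All intervals treat peaks as independent, which peaks of 1 gene or region are not. Counting and merging steps were checked on simulated data. Alternatives covered assignment, merging, width, flank size and the overlap rule. Python 3.11.15, numpy 2.4.6, pandas 2.3.3, scipy 1.17.1 and matplotlib 3.10.9 were used.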

Additional observations from a re-analysis of the deposited data

How the results depend on the processing

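The 64 assigned day 20 peaks became 62 by overlap with the gene body, 66 with 5 kb added on both sides and 61 with peaks within 1 kb merged. With only peaks at least as wide as their list's median, 34 remained (3.82 per 100 kb), of which 10 of 10 in Nfix and 11 of 26 in Nfia. The 134 flank peaks became 88 with flanks of 250 kb, 255 with 1000 kb, 69 with the wider peaks alone and 128 after merging. Merging raised the median Nfix width to 2087 bp in 9 peaks and left Nfic at 1100 bp. The 0 day 0 peaks stayed 0 by overlap with the gene body and with 5 kb added. The 0% of shared peaks stayed 0 when a gap of up to 1 kb was allowed. Merging, the width cut and a stricter overlap rule also left 0, but these could not have raised it. Ordering by density against the Runx and Zfhx3 groups depended on how peaks were assigned. No paired analysis was possible because each list was made from merged libraries. Peak number and width also depend on sequencing depth, which is unknown, and on the threshold of the deposited list.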
